A study of Mus musculus with 50 samples.

Results

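The genes described here encode the complement system: the recognition molecules, proteases, pore-forming components, regulators and receptors of the classical, lectin, alternative and terminal pathways. A list of 36 gene symbols defined them, and each symbol was matched to the gene symbol of an array probe, with the brightest probe used for C2, the gene among them with several probes. Of the 36, 34 were measured among 30743 genes, with 8 in the classical pathway, 7 in the lectin pathway, 2 in the alternative pathway, 7 in the terminal pathway, 8 regulators and 2 receptors. C3 and Cfd are not analysed here. Apart from that choice of probe for C2, the rule used no expression value.

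Livers came from CD-1 mice, an outbred stock, and were taken at gestational day 17.5 from pregnant dams and their fetuses after daily oral dosing of the dam. PFOA (perfluorooctanoic acid) was given at 1 mg/kg/day (called PFOA1 here) or 5 mg/kg/day (PFOA5), and GenX, a shorter-chain fluorinated replacement for PFOA, at 2 mg/kg/day (GenX2) or 10 mg/kg/day (GenX10), while control dams received the vehicle (0 mg/kg/day). Each of the 10 groups of maternal or fetal liver had 5 arrays, except fetal PFOA5 with 6 and fetal GenX10 with 4, which makes 50 arrays. The fetuses were exposed through the dam only, and the labels call dams and fetuses matched without naming the pairs. Samples were bulk liver, so fewer cells of a type and less RNA per cell cannot be told apart in any result below.

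Levels are log2 signals of a whole-transcript array, on a scale where 1 unit is a doubling of signal. Between 5461 and 7488 genes per maternal array and between 4393 and 6225 per fetal array lay above the 95th percentile of the array's negative controls, and a gene at or below that percentile on every array of a group is called not well above background there. That held for 6 to 9 of the 34 complement genes in maternal groups and for 11 to 13 in fetal groups. The labelled tissue was borne out by its markers, since all 6 measured hepatocyte markers were above background in every group. Arrays were grouped by their titles. The source name of fetal PFOA5 replicate 6 gives GenX at the lower dose, and that of fetal GenX2 replicate 5 gives GenX at the higher dose. Fetuses were described as female, but Xist, the RNA of the inactive X chromosome, measured 5.39 in fetal control replicate 3 and 4.50 in fetal GenX2 replicate 2, against 10.52 to 11.48 in the other 23 fetal arrays. Calls in fetal liver were recomputed without either pair of these arrays and with source names followed. Calls that were lost are named beside the result, and genes newly called in these runs are not named. The fetal calls of Mbl2, C1ra and Cr1l against controls held in all 3 cases.

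Complement is a cascade of plasma proteins, most of them made and secreted by hepatocytes. Antibody or C-reactive protein bound to a surface starts the classical pathway through C1q and its proteases C1r and C1s, while sugar patterns start the lectin pathway through mannose-binding lectins, collectins and ficolins with their MASP proteases. Both pathways cleave C4 and C2 to form an enzyme that activates C3, the alternative pathway amplifies that step through factor B, and the terminal components C5 to C9 assemble a membrane pore. Regulators such as C1 inhibitor, C4b-binding protein and factor I hold the cascade in check, and the small fragments C3a and C5a act on receptors of myeloid cells. C1q and ficolin A are made mainly by macrophages rather than hepatocytes, and properdin is a myeloid product.

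The paralogous mannose-binding lectins Mbl1 and Mbl2 moved in opposite directions in fetal liver, so the sequence just upstream of each gene is shown. Both come from RefSeq on build GRCm38.p6, plus strand, and end at the base before the annotated gene start. The Mbl1 window is chr14:41151206-41151455 (250 bases) and the Mbl2 window is chr19:30232678-30232905 (228 bases). Capitals mark the stretch of 39 bases in which the windows align best.
Mbl1: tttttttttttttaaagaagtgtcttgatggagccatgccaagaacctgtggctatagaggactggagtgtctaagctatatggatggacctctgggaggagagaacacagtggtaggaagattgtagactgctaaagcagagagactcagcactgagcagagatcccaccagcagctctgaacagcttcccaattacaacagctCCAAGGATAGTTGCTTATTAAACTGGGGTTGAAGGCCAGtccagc
Mbl2: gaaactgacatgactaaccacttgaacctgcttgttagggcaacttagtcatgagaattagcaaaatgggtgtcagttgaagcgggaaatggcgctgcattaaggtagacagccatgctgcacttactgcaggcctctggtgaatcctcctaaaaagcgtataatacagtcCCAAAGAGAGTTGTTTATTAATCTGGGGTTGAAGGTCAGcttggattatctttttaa

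In that stretch 34 of the 39 bases were identical (87.2%), and reading from Mbl2 to Mbl1, with positions counted from 1 at the stretch's first base, the differences were A5G, G8T, T14C, T22A and T36C. The letters AGGTCA, the core motif that nuclear receptors of the PPAR and RXR kind bind, began at position 33 of the Mbl2 stretch, and T36C falls within them. Of 25 complement genes with a RefSeq promoter entry, 6 held AGGTCA on either strand in the 250 bases before the start (C8b, C1qc, C1rl, C6, C7 and Mbl2), against 14% of 32851 mouse promoters. AGGTCA repeated in the same direction after 1 base was in 0 of the 25 and in 0.0335% of all promoters. The motif TTGCNNAA was in 3 of the 25 (C1rl, C1s1 and C9) against 9.56% of all promoters, TTCNNNGAA in 4 (C8a, Masp2, Colec11 and C7) against 7.02% and TATAAA in 4 (Hc, C3ar1, Vtn and C7) against 12.4%. These matches are letters in a window and say nothing of binding.

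In maternal liver, more complement transcripts fell than rose after the higher dose of either compound. After PFOA5, 17 of the 34 genes fell and 1 rose relative to maternal controls (limma, Benjamini-Hochberg adjusted p under 0.05 over all genes, a threshold used throughout), so 52.9% were called, against 19.9% of all genes. The share that fell was 50%, against 9.04% of all genes, and the share that rose 2.94%, against 10.8% of all genes. With dim genes left out, 18 of 26 members were called, against 46.7% of the genes kept, and 17 of them fell, against 11.9%. After GenX10, 11 fell and 3 rose, so that 41.2% were called, against 13.8% of all genes. The share that fell was 32.4%, against 6.22% of all genes, and the share that rose 8.82%, against 7.55%. With dim genes left out, 15 of 26 members were called, against 35.9% of the genes kept, and 12 of them fell, against 8.93%. The median log2 difference of the 34 genes was -0.35 after PFOA5 and -0.19 after GenX10, against -0.05 for the median of all genes in each of these comparisons. GenX2 lowered 3 genes, Mbl2, C8g and C4bp (8.82% of members, against 3.37% of all genes, with 2.43% higher and 0.937% lower). With dim genes left out these were 3 of 26 members, close to the 12.3% of the genes kept that were called in either direction. All 3 fell, whereas 1.46% of the genes kept fell. After PFOA1, limma called 0 of the 34 (0.0325% of all genes), and 0 reached an unadjusted p under 0.05, against 1532 of all 30743 genes. The arrays of 15 members lay wholly below those of the controls after PFOA5 and of 10 after GenX10, against 7.35% and 6.55% of all genes. Wholly above lay 0 members after PFOA5 and 1 after GenX10, against 8.05% and 6.1% of all genes. All 4 maternal comparisons share the 5 control arrays.

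In fetal liver the members that rose were Mbl1, Clu and Cr1l. Over all measured members more fell than rose after PFOA5, GenX2 and GenX10. With dim genes left out as many rose as fell, under a filter that favours genes raised by exposure. PFOA1 raised Mbl1 and lowered Mbl2 (5.88% of members called, against 0.953% of all genes, of which 0.842% rose and 0.111% fell). After PFOA5, 3 rose and 6 fell, or 26.5% against 3.39% of all genes, of which 2.34% rose and 1.05% fell. After GenX2, 3 rose and 4 fell, or 20.6% against 6.73% (3.9% higher and 2.83% lower). After GenX10, 3 rose and 7 fell, or 29.4% against 9.27% (4.42% higher and 4.85% lower). Many fetal members and most genes of the array lay near background. With genes kept only where they were above background on at least 4 fetal arrays, a rule a gene could pass through 1 group alone, 6 of 22 members were called after each of PFOA5, GenX2 and GenX10, against 11.9%, 24.9% and 25.5% of the genes kept. After the GenX doses the share of members called was thus close to that of all genes kept. In each of these 3 comparisons 3 members rose and 3 fell. That balance is partly set by the filter, which more easily keeps genes raised in exposed arrays, as may be the shares that follow. Mbl1, above background on 1 of 5 control arrays but on most exposed ones, was kept. Mbl2 and C1ra, which fell, were above background on 2 and 1 control arrays and on no exposed one, and were dropped. Of the genes kept, 10.2%, 17.6% and 16.7% rose and 1.67%, 7.32% and 8.81% fell after PFOA5, GenX2 and GenX10. The arrays of 2 members lay wholly above and of 2 wholly below the controls after PFOA5 (2.13% and 1.08% of all genes), of 2 and 6 after GenX2 (3.49% and 2.99%), and of 3 and 6 after GenX10 (4.34% and 6.31%). Without the pair of arrays of conflicting labels the members called numbered 2, 7, 7 and 10 after PFOA1, PFOA5, GenX2 and GenX10, and without the arrays of low Xist 2, 6, 5 and 9. They numbered 2, 7, 7 and 10 with source names followed. Over the 8 exposure comparisons no member was called in both directions. The share of all genes for which this held was not computed. The 4 fetal comparisons share their 5 control arrays.

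**Figure D1:**
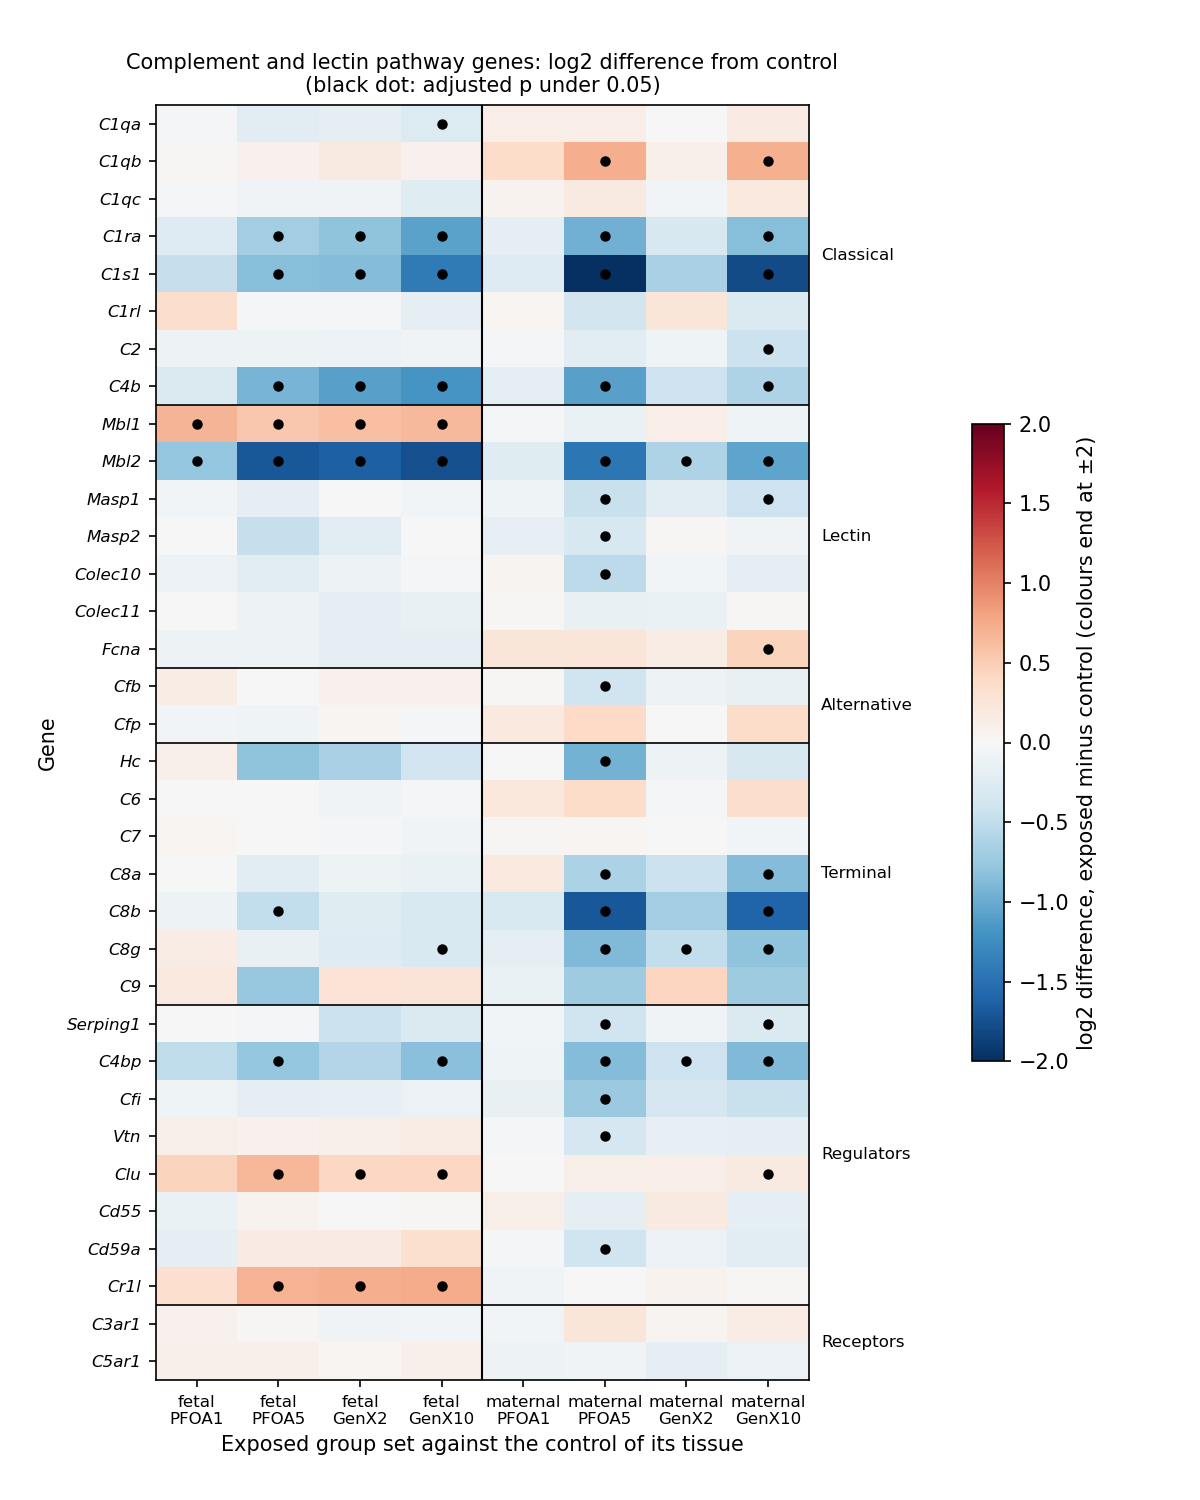
Log2 difference of each measured complement gene (rows, by pathway) from the control group of its own tissue in the 8 exposure comparisons (columns), with calls at adjusted p under 0.05 marked; values are colour coded. The maternal PFOA5 column holds 17 lower calls and the maternal PFOA1 column none, while the higher calls of fetal liver lie in the rows of Mbl1, Clu and Cr1l.

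Mbl2 and Mbl1 encode the mouse mannose-binding lectins, the sugar-recognising starters of the lectin pathway. Mbl2 fell in every exposure comparison except maternal PFOA1. Its levels were 10.43, 9.80, 9.91, 9.91 and 9.51 in PFOA5 dams and 10.19, 10.07, 10.54, 10.60 and 10.09 in GenX10 dams, against 11.16, 11.47, 11.47, 11.23 and 11.44 in control dams. Neither high-dose group overlapped the controls. The log2 difference was -1.44 ± 0.16 (SE) after PFOA5 (limma adjusted p = 5.6e-07, 2.72-fold lower) and -1.06 ± 0.16 after GenX10 (adjusted p = 6.1e-05). After GenX2 the levels were 10.49, 10.89, 10.74, 10.38 and 11.23, which overlapped the controls, and the difference was -0.61 ± 0.16 (limma adjusted p = 0.033). That call was lost without control replicate 2, 3 or 5 or GenX2 replicate 1, 3 or 4 (adjusted p up to 0.11). PFOA1 dams gave 11.46, 10.95, 10.81, 11.09 and 11.24, within or just below the control levels, a difference of -0.25 ± 0.16 that was not called.

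In fetal liver Mbl2 was above background in the control group alone, on 2 of its 5 arrays. Its levels were 6.96, 6.87, 6.87, 7.20 and 7.02 in PFOA1 fetuses, and in PFOA5 fetuses the lowest, median and highest were 5.90, 6.06 and 6.22. They were 6.16, 6.21, 6.36, 5.83 and 6.06 in GenX2 fetuses and 6.03, 5.84, 6.01 and 6.12 in GenX10 fetuses, against 7.83, 8.17, 7.05, 7.68 and 8.03 in control fetuses. Only the PFOA1 group overlapped the controls, at control replicate 3, an array of low Xist. The limma adjusted p was 0.003 after PFOA1, 4.3e-09 after PFOA5, 1.7e-08 after GenX2 and 1.5e-08 after GenX10, and no fold is given because the exposed groups were not well above background. The PFOA1 call was lost when only the compared groups were fitted (limma adjusted p = 0.065).

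Mbl1 did the opposite in fetuses and was not called in dams. In fetal liver its levels were 8.20, 8.01, 8.57, 8.31 and 8.32 after PFOA1, had a lowest, median and highest of 7.74, 8.11 and 8.62 after PFOA5, and were 8.35, 8.36, 8.23, 7.75 and 8.27 after GenX2 and 8.29, 8.32, 8.18 and 8.22 after GenX10, against 7.90, 7.44, 7.61, 7.60 and 7.44 in controls. The PFOA1 and GenX10 groups lay wholly above the controls. Mbl1 was above background on all arrays after PFOA1 and GenX10, on 5 of 6 after PFOA5 and on 4 of 5 after GenX2, against 1 of 5 in controls, so the differences are set against a level near background and no fold is given. The rise was 0.69 ± 0.14 after PFOA1 (limma adjusted p = 0.0094), 0.54 ± 0.13 after PFOA5 (0.021), 0.60 ± 0.14 after GenX2 (0.0093) and 0.66 ± 0.15 after GenX10 (0.0057). The PFOA5 call was lost without control replicate 2 or 5 or PFOA5 replicate 3 or 6 (adjusted p up to 0.064). Without the arrays of conflicting labels the PFOA5 difference was 0.44 (limma adjusted p = 0.064), and the call was also lost with source names followed (adjusted p = 0.076), while the calls after PFOA1, GenX2 and GenX10 held. In dams the difference was -0.13 ± 0.12 after PFOA5, whose 5 arrays measured 8.48 to 8.89, against 8.79 to 8.95 in controls, and -0.09 ± 0.12 after GenX10.

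The MASP proteases, which carry the lectin signal to C4 and C2, fell in dams, by less than Mbl2 did. Masp1 measured 9.13, 9.25, 8.88, 9.13 and 9.07 in PFOA5 dams and 9.14, 8.97, 9.14, 9.05 and 9.35 in GenX10 dams, against 9.61, 9.56, 9.55, 9.51 and 9.48 in controls. Neither group overlapped the controls, at -0.45 ± 0.09 (limma adjusted p = 0.00055) after PFOA5 and -0.41 ± 0.09 (0.0023) after GenX10. Masp2 fell after PFOA5, with 9.80, 9.86, 9.54, 9.73 and 9.59 against 10.12, 9.96, 10.05, 10.02 and 9.98 in controls (-0.32 ± 0.08, limma adjusted p = 0.0057), and stood at -0.08 ± 0.08 after GenX10. The collectins are soluble lectins of liver and kidney. Colec10 fell after PFOA5 (-0.53 ± 0.17, limma adjusted p = 0.026), with 7.84, 7.26, 7.63, 7.77 and 7.40 against 7.62, 8.41, 8.24, 7.99 and 8.30 in controls, and it was above background on 3 of 5 PFOA5 arrays and 4 of 5 control arrays. The call was lost without control replicate 2, 3 or 5 or PFOA5 replicate 2 or 5 (adjusted p up to 0.079). Colec11 was not well above background in PFOA5 dams (7.21, 7.49, 7.58, 7.32 and 7.49, against 7.66, 7.50, 7.70, 7.55 and 7.42 in controls) or in any fetal group, and was called in no exposure comparison. In fetal liver the MASP and collectin genes were not called; the Masp1 differences there ran between -0.17 ± 0.08 after PFOA5 and -0.00 ± 0.08 after GenX2.

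C4b, C1ra and C1s1 carried the classical pathway's change in both tissues. C4b encodes complement component C4, the substrate that the classical and lectin pathways share. Its levels were 10.69, 10.42, 10.47, 10.78 and 10.43 in PFOA5 dams and 10.87, 11.15, 11.03, 11.13 and 10.97 in GenX10 dams, against 11.69, 11.75, 11.63, 11.63 and 11.53 in controls, with no overlap. It fell by 1.09 on the log2 scale after PFOA5 (SE 0.14, limma adjusted p = 5.7e-06) and by 0.61 after GenX10 (SE 0.14, adjusted p = 0.0055). In fetal liver C4b spanned 7.67 to 9.67 with a median of 8.42 after PFOA5, measured 8.49, 8.48, 8.47, 7.42 and 8.74 after GenX2 and 8.26, 7.84, 8.46 and 8.31 after GenX10, against 9.27, 8.86, 9.43, 9.75 and 9.71 in controls. The GenX groups lay wholly below the controls and the PFOA5 group overlapped them. All controls were above background, as were 5 of 6 PFOA5, 4 of 5 GenX2 and 3 of 4 GenX10 arrays. The differences were -0.94 ± 0.26 after PFOA5 (limma adjusted p = 0.049), -1.09 ± 0.28 after GenX2 (0.016) and -1.19 ± 0.29 after GenX10 (0.011). The PFOA5 call was lost without the arrays of conflicting labels (-0.97, limma adjusted p = 0.068), with source names followed (0.063), without those of low Xist (-0.93, 0.10) and without any single array other than control replicate 2 and PFOA5 replicate 3 (adjusted p up to 0.13). The GenX2 call was lost without control replicate 5 or GenX2 replicate 4 (adjusted p up to 0.070). After PFOA1 fetal C4b stood at -0.29 ± 0.28.

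C1s1 and C1ra encode the proteases of the C1 complex. C1s1 had the largest fall in dams, with 8.29, 7.62, 6.70, 7.57 and 7.46 after PFOA5 and 7.87, 6.85, 8.57, 7.88 and 7.88 after GenX10, against 8.99, 10.02, 9.89, 9.93 and 9.14 in controls. Both groups lay below every control, at -2.07 ± 0.34 after PFOA5 (limma adjusted p = 0.0001, 4.19-fold lower) and -1.78 ± 0.34 after GenX10 (0.00087, 3.44-fold lower). It was above background on 3 of 5 PFOA5 and 4 of 5 GenX10 arrays, and on all controls. In fetuses C1s1 had a lowest, median and highest of 8.04, 8.75 and 9.01 after PFOA5, 8.82, 8.39, 8.57, 8.77 and 8.68 after GenX2 and 8.18, 8.14, 8.42 and 7.67 after GenX10, against 8.82, 9.89, 9.97, 9.57 and 9.33 in controls. The fall was -0.86 ± 0.20 (limma adjusted p = 0.014), -0.87 ± 0.21 (0.012) and -1.41 ± 0.22 (0.00017) after PFOA5, GenX2 and GenX10. Without the arrays of low Xist the first pair became -0.74 and -0.69 (limma adjusted p = 0.059 and 0.077), and the GenX10 call held, from a group in which 2 of 4 arrays were above background. The PFOA5 call was also lost without control replicate 2 or 3 alone (adjusted p up to 0.055).

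C1ra measured 8.55, 8.54, 7.75, 8.69 and 8.38 in PFOA5 dams and 8.64, 8.07, 8.76, 8.36 and 8.61 in GenX10 dams, against 9.29, 9.35, 9.44, 9.61 and 9.04 in controls, again without overlap (-0.97 ± 0.16, limma adjusted p = 0.00013, and -0.86 ± 0.16, 0.00078). In fetal controls it measured 7.68 to 7.98, above background on 1 of 5 arrays, and it was not well above background in any exposed fetal group. It spanned 6.94 to 7.21 after PFOA5, 6.91 to 7.12 after GenX2 and 6.43 to 7.02 after GenX10, each below every control. With the controls themselves near background no fold is given (limma adjusted p = 4e-06 after PFOA5, 9.3e-07 after GenX2 and 1.6e-08 after GenX10). C4b, C1ra and C1s1 have near copies in the mouse genome, C4a, C1rb and C1s2, whose reads of the shared sequence the probes may not separate. The copies moved alike: C1rb differed by -1.08 ± 0.15, C1s2 by -2.07 ± 0.35 and C4a by -1.14 ± 0.15 after PFOA5 in dams (limma adjusted p = 1.4e-05, 0.00015 and 3.9e-06).

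**Figure D2:**
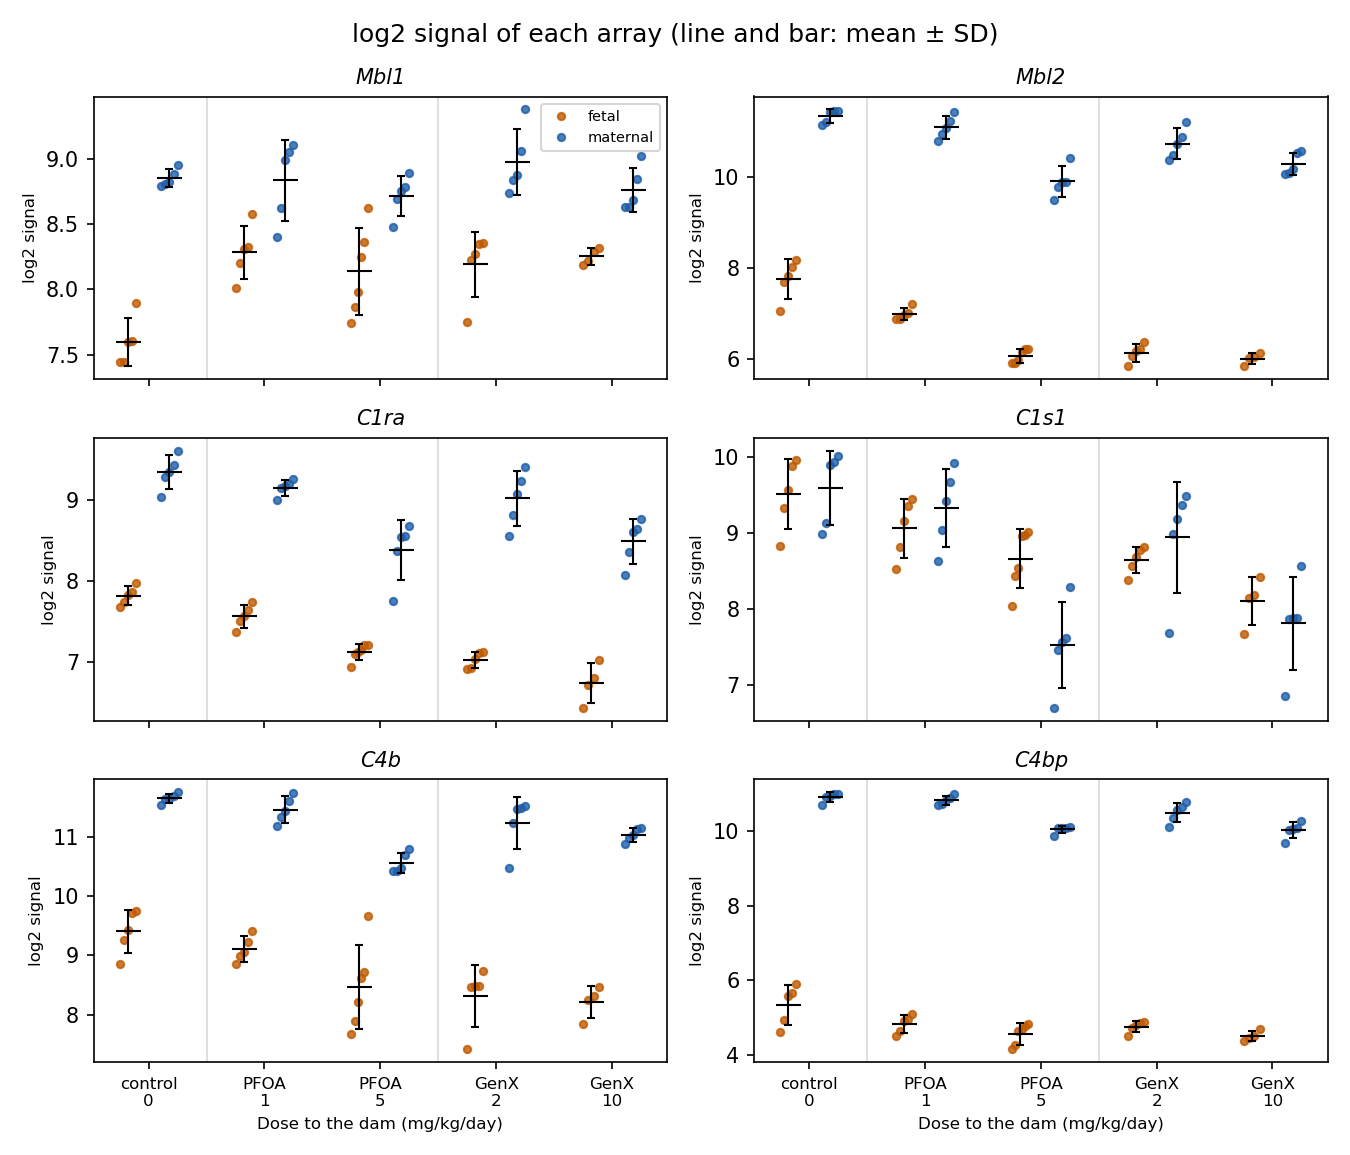
Log2 signal of Mbl1, Mbl2, C1ra, C1s1, C4b and C4bp on each array by dose group in maternal and fetal liver, with each point an array and the line and bar the mean ± SD. Maternal Mbl2, C1ra, C1s1, C4b and C4bp lie below all 5 controls in the PFOA5 and GenX10 groups, and fetal Mbl1 lies above all controls after PFOA1 and GenX10.

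C1q, the recognition subunit, is built from the chains of C1qa, C1qb and C1qc, adjacent genes on chromosome 4 (C1qb at chr4:136880126-136886200, GRCm38.p6). C1qb rose in dams, with 8.64, 8.57, 7.68, 8.46 and 8.92 after PFOA5 and 8.59, 8.37, 7.94, 8.22 and 9.02 after GenX10, against 7.46, 7.60, 7.85, 8.46 and 7.24 in controls. Both groups overlapped the controls, of which 3 of 5 were above background. The differences were 0.73 ± 0.23 (limma adjusted p = 0.024) and 0.71 ± 0.23 (0.039), neither of them stable to single arrays. The PFOA5 call was lost without control replicate 1, 2 or 5 or PFOA5 replicate 1, 2 or 5 (adjusted p up to 0.072), and the GenX10 call without control replicate 1, 2, 3 or 5 or GenX10 replicate 1, 2 or 5 (up to 0.12). C1qa and C1qc were not well above background in most groups; C1qa fell in GenX10 fetuses (7.07, 6.82, 7.23 and 7.13, against 7.49, 7.30, 7.28, 7.32 and 7.31 in controls, limma adjusted p = 0.037) but lay at background in both. That call was lost without control replicate 1, 4 or 5 or GenX10 replicate 1, 2 or 4 (adjusted p up to 0.20). C1qc measured 7.12, 6.99, 7.28 and 6.99 in GenX10 fetuses, against 7.48, 7.20, 7.34, 7.27 and 7.39 in controls, and was not called (limma adjusted p = 0.082). The serine protease C2 fell after GenX10 in dams (-0.43 ± 0.14, limma adjusted p = 0.045), a call that held only without control replicate 1 or 5 or GenX10 replicate 2 (adjusted p otherwise up to 0.13), and stood at -0.23 ± 0.14 after PFOA5. C1rl, a protease related to C1r, was not called after any exposure.

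Ficolin A, encoded by Fcna, is a lectin of macrophages, and it rose in GenX10 dams. Its levels were 8.49, 8.27, 8.04, 8.09 and 8.56, against 7.52, 8.03, 7.97, 8.05 and 7.64 in controls, which overlap (0.45 ± 0.12, limma adjusted p = 0.015), and the call was lost without GenX10 replicate 1 (highest adjusted p 0.054). After PFOA5 Fcna stood at 0.23 ± 0.12 and was not called. Properdin, encoded by Cfp, stabilises the alternative pathway's enzyme and is a myeloid product. It measured 8.28, 7.84, 7.13, 7.83 and 7.91 in PFOA5 dams and 7.82, 7.68, 7.45, 7.85 and 8.09 in GenX10 dams, against 7.32, 7.39, 7.53, 7.85 and 6.94 in controls, and neither difference was called (0.39 ± 0.16 and 0.37 ± 0.16, limma adjusted p = 0.093 and 0.13).

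Some markers of macrophages and Kupffer cells, the resident macrophages of liver, rose in the same dams. Of all genes, 10.8% rose after PFOA5 and 7.55% after GenX10. With dim genes left out, 34.8% and 26.9% of the genes kept rose, a filter under which the markers are not counted here. Beside these larger shares the marker counts below do not stand out. Of 11 markers, 4 rose after PFOA5 (Cd5l by 0.84 ± 0.20, limma adjusted p = 0.0052, with Vsig4, Cd68 and Adgre1, of which Cd68 lay at background in controls and Adgre1 throughout) and 2 after GenX10 (Cd5l by 0.72 ± 0.20, adjusted p = 0.021, and Cd68), and the median over the list was 0.52 after PFOA5 and 0.45 after GenX10. The summed linear signal of the 11 markers had a lowest, median and highest of 1452.0, 2698.4 and 2846.9 in PFOA5 dams and 1872.3, 2193.3 and 2974.6 in GenX10 dams, against 1269.0, 1616.8 and 2124.5 in control dams. Both ranges overlapped that of the controls. After GenX2 and PFOA1 none was called and the medians were 0.14 and 0.23. In fetuses the sum was 2262.0 to 3074.1 after PFOA5, 2577.3 to 3037.5 after GenX2 and 2417.4 to 2985.9 after GenX10, against 2728.0 to 3235.3 in controls, and of the 11 markers none rose, while 1, 1 and 2 fell. Csf1r, the receptor on which macrophages depend, was the marker that fell in each (by 0.28, 0.27 and 0.31, limma adjusted p = 0.044, 0.045 and 0.024), and Cd163, at background, fell after GenX10. The list's fetal medians were -0.19, -0.11 and -0.13, and Marco stood at 0.18 ± 0.17 after PFOA5 and 0.12 ± 0.17 after GenX2. The Csf1r call was lost after PFOA5 and GenX2 without the arrays of low Xist (limma adjusted p = 0.073 and 0.16), and after PFOA5 also without those of conflicting labels (0.081) and with source names followed (0.072). That of Cd163 after GenX10 was lost with source names followed (limma adjusted p = 0.062). Adgre1, Timd4 and Cd163 were not well above background in any group. The part of these markers in the C1qb and Fcna results was not tested.

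Factor B, encoded by Cfb, is the catalytic protein of the alternative pathway. It measured 11.30, 11.09, 11.06, 11.25 and 11.09 in PFOA5 dams, against 11.57, 11.63, 11.57, 11.47 and 11.52 in controls, without overlap (-0.39 ± 0.07, limma adjusted p = 0.00023). GenX10 dams gave 11.34 to 11.50, overlapping the controls (-0.15 ± 0.07), which was not called. In fetuses Cfb stood between -0.01 ± 0.09 after PFOA5 and 0.15 ± 0.09 after PFOA1, with no call.

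Among the terminal components, the 3 chains of C8 and Hc, the gene of mouse C5, fell in dams after PFOA5. C8b, which encodes the beta chain, measured 7.80, 8.08, 8.12, 8.84 and 7.60 in PFOA5 dams and 7.96, 7.62, 8.94, 8.25 and 8.18 in GenX10 dams, against 9.44, 9.95, 10.04, 9.73 and 9.78 in controls. It lay below every control in both groups, at -1.70 ± 0.24 (limma adjusted p = 1.2e-05, 3.25-fold lower) and -1.60 ± 0.24 (4.2e-05, 3.03-fold lower), and 4 of 5 PFOA5 arrays were above background. C8g, the gamma chain, measured 8.85, 8.76, 8.57, 8.79 and 8.81 in PFOA5 dams and 9.19, 8.68, 8.61, 8.93 and 8.74 in GenX10 dams, against 9.65, 9.48, 9.75, 9.59 and 9.70 in controls (-0.88 ± 0.12 and -0.81 ± 0.12, limma adjusted p = 9.3e-06 and 4.2e-05). GenX2 lowered it too, with 9.60, 9.13, 8.83, 9.06 and 9.11 (-0.49 ± 0.12, limma adjusted p = 0.019), a call lost without control replicate 3 or GenX2 replicate 3 (adjusted p up to 0.071).

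C8a, the alpha chain, lies beside C8b on chromosome 4 (C8b at chr4:104766317-104804548 and C8a at chr4:104815679-104876487, GRCm38.p6). It measured 10.14, 9.80, 10.37, 10.52 and 9.82 in PFOA5 dams and 9.95, 9.43, 10.43, 9.93 and 9.72 in GenX10 dams, against 10.67, 11.00, 10.88, 10.46 and 10.83 in controls. One PFOA5 array reached into the control range, and none of GenX10 did (-0.64 ± 0.19 and -0.87 ± 0.19, limma adjusted p = 0.018 and 0.0026); the PFOA5 call was lost without PFOA5 replicate 2 or 5 (adjusted p up to 0.056). Hc measured 10.51, 10.28, 10.50, 9.60 and 9.80 in PFOA5 dams, against 10.97, 11.60, 10.54, 10.91 and 11.42 in controls (-0.95 ± 0.24, limma adjusted p = 0.0061), and stood at -0.31 ± 0.24 after GenX10. C6, C7 and C9 were not called after any exposure. C9 lay at background in dams apart from GenX2 replicate 1, which measured 9.07, against 4.47 to 4.73 in the other GenX2 dams.

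In fetal liver C8b was called after PFOA5, where it fell. It had a lowest, median and highest of 10.04, 10.12 and 10.49, against 10.48, 10.43, 10.76, 10.97 and 10.66 in controls (-0.49 ± 0.13, limma adjusted p = 0.031). The call was lost without the arrays of low Xist (-0.46, 0.084) and without control replicate 3, 4 or 5 or PFOA5 replicate 1, 2, 3, 4 or 5 (up to 0.11), and held without those of conflicting labels (-0.55, 0.014). C8g measured 7.60, 7.60, 7.50 and 7.59 in GenX10 fetuses, against 7.92, 7.90, 7.98, 7.73 and 7.86 in controls (limma adjusted p = 0.029). It was not well above background after GenX10 and lay near background in controls, so no fold is given. The call was lost with source names followed (limma adjusted p = 0.055) and without any single array other than control replicates 2 and 4 (adjusted p up to 0.065). Hc varied widely among fetuses, with a lowest, median and highest of 7.78, 8.89 and 9.70 after PFOA5, against 9.24, 10.66, 9.78, 9.25 and 9.33 in controls (-0.80 ± 0.36, limma adjusted p = 0.34). C8a was not called in fetuses, nor was C9, which lay at background there (4.70 to 6.84 after PFOA5, against 5.84 to 6.86 in controls).

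**Figure D3:**
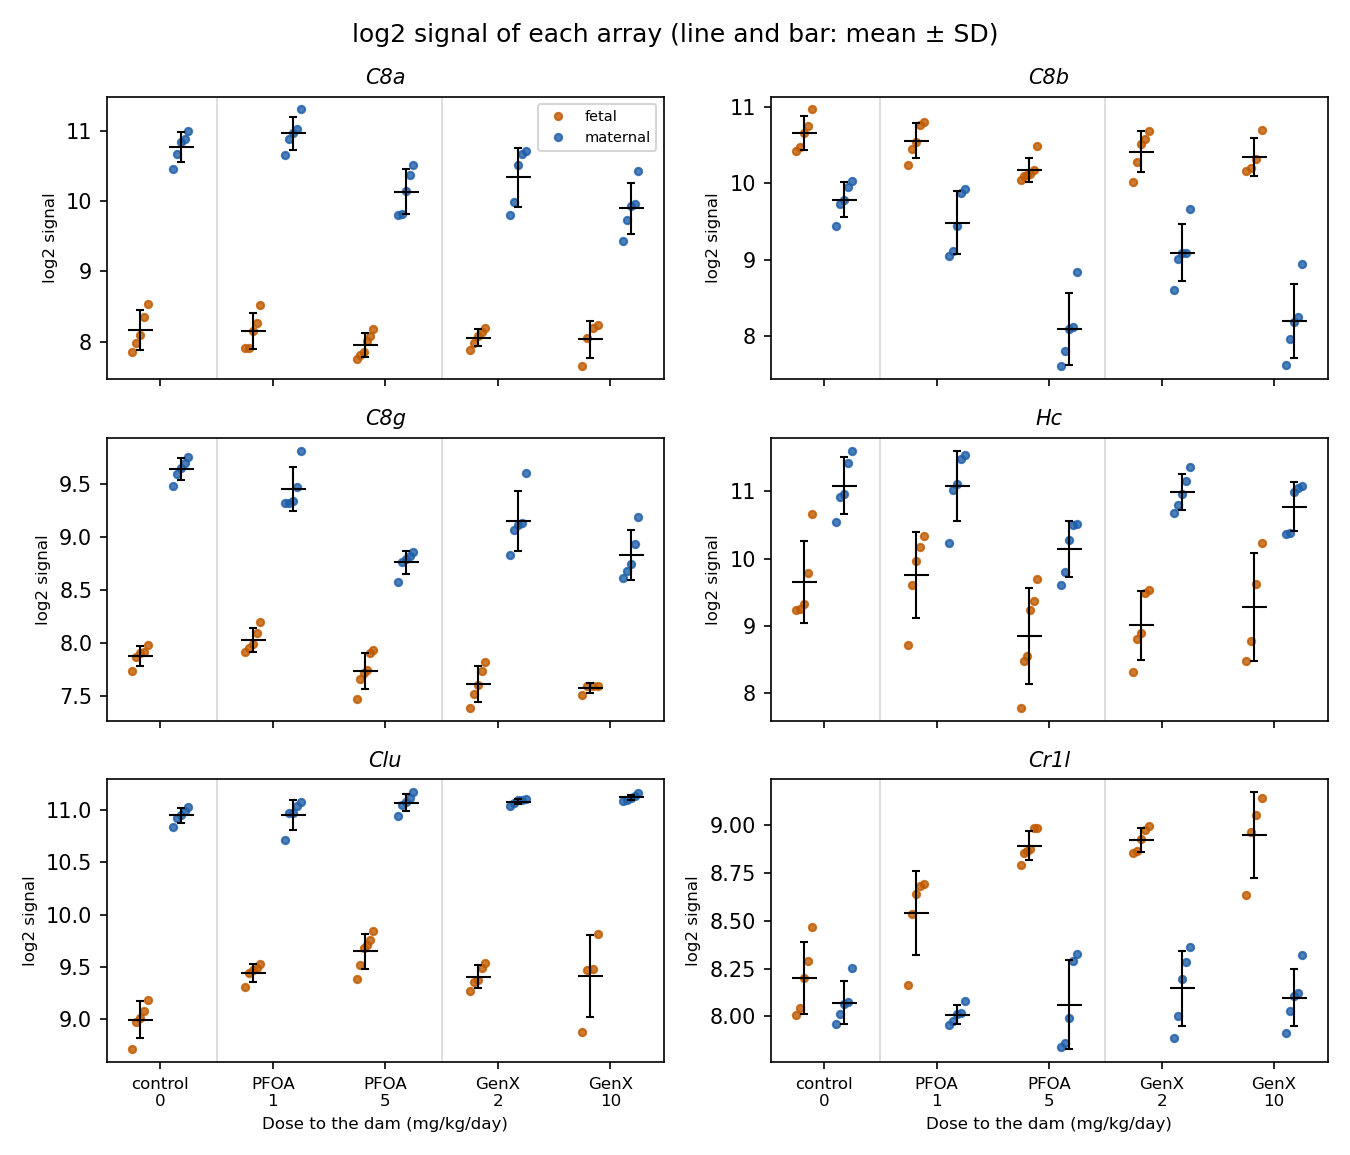
Log2 signal of C8a, C8b, C8g, Hc, Clu and Cr1l on each array by dose group in maternal and fetal liver, with each point an array and the line and bar the mean ± SD. Maternal C8b and C8g lie below all controls in the PFOA5 and GenX10 groups, and fetal Cr1l lies above all controls in the PFOA5, GenX2 and GenX10 groups.

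Most soluble regulators fell in dams as well. C4b-binding protein, encoded by C4bp, dismantles the enzyme made from C4b and C2. It measured 10.07, 10.09, 9.85, 10.07 and 10.08 in PFOA5 dams and 10.04, 9.66, 10.02, 10.07 and 10.27 in GenX10 dams, against 10.68, 10.99, 10.90, 10.93 and 10.99 in controls, without overlap. The differences were -0.86 ± 0.11 (limma adjusted p = 2.3e-06) and -0.89 ± 0.11 (2.2e-06), and GenX2 gave -0.42 ± 0.11 (0.026) from arrays at 10.34, 10.64, 10.56, 10.11 and 10.76. The GenX2 call was lost without control replicate 2, 3, 4 or 5 or GenX2 replicate 1 (adjusted p up to 0.085). In fetal liver C4bp was not well above background in any group, and its calls after PFOA5 and GenX10 (limma adjusted p = 0.0092 and 0.007) carry no fold.

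C1 inhibitor, encoded by Serping1, blocks C1r, C1s and the MASPs. It measured 11.25, 11.17, 11.08, 11.27 and 11.05 in PFOA5 dams and 11.21, 11.30, 11.30, 11.39 and 11.19 in GenX10 dams, against 11.68, 11.54, 11.62, 11.65 and 11.35 in controls. The PFOA5 group lay below every control (-0.40 ± 0.08, limma adjusted p = 0.0006) and the GenX10 group overlapped (-0.29 ± 0.08, 0.014), a call lost with arrays centred on their medians (adjusted p = 0.067). Factor I, encoded by Cfi, cleaves C3b and C4b, and it measured 10.91, 10.70, 10.63, 10.98 and 10.52 in PFOA5 dams, against 11.43, 11.56, 11.50, 11.44 and 11.52 in controls (-0.74 ± 0.15, limma adjusted p = 0.00095). After GenX10 it measured 11.10, 10.81, 11.38, 11.04 and 10.92, below every control, at -0.44 ± 0.15, just short of the threshold. Vitronectin, encoded by Vtn, and Cd59a, a membrane protein, both keep the terminal pore from forming, and after PFOA5 they fell by 0.33 (SE 0.08, limma adjusted p = 0.0032) and 0.40 (SE 0.09, 0.0023). Vtn measured 11.38, 11.27, 11.21, 11.43 and 11.24 in PFOA5 dams, against 11.70, 11.63, 11.63, 11.63 and 11.59 in controls, and in fetuses 10.95, 11.05 and 11.11 (lowest, median and highest) after PFOA5, against 10.92 to 10.97 in controls. Cd59a and Cd55 have near copies, Cd59b and Cd55b, that their probes may not separate.

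Clusterin, encoded by Clu, binds terminal complexes and misfolded proteins, and it rose where it was called. In fetal liver it had a lowest, median and highest of 9.39, 9.69 and 9.84 after PFOA5, measured 9.36, 9.54, 9.27, 9.37 and 9.49 after GenX2 and 9.82, 8.88, 9.47 and 9.48 after GenX10, against 9.19, 8.97, 8.71, 9.01 and 9.08 in controls. The PFOA5 and GenX2 groups lay above every control, and in the GenX10 group 3 of 4 arrays did. The rise was 0.66 ± 0.11 after PFOA5 (limma adjusted p = 0.00066), 0.41 ± 0.12 after GenX2 (0.035) and 0.42 ± 0.13 after GenX10 (0.036). Without the arrays of low Xist, one of which had the lowest control value, the GenX2 and GenX10 differences were 0.31 and 0.35 (limma adjusted p = 0.16 and 0.085), and without those of conflicting labels GenX2 gave 0.39 (0.076). The PFOA5 call held in both cases (0.59 and 0.62). Left out singly, any array but control replicate 1 and GenX2 replicate 3 ended the GenX2 call (adjusted p up to 0.095), and any but control replicate 1 and GenX10 replicate 2 the GenX10 call (up to 0.18). After PFOA1 Clu measured 9.47, 9.44, 9.53, 9.30 and 9.48, above every control, and was not called (0.45 ± 0.12, limma adjusted p = 0.075). In dams Clu rose by 0.17 (SE 0.06) after GenX10 (11.13, 11.10, 11.16, 11.09 and 11.12, against 11.00, 10.93, 10.95, 11.03 and 10.84 in controls, limma adjusted p = 0.044), a call lost without any single array other than control replicate 4 (adjusted p up to 0.11).

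Cr1l, also known as Crry, is the rodent membrane regulator that limits C3 and C4 activation, and it rose in exposed fetuses. Its lowest, median and highest were 8.79, 8.87 and 8.99 after PFOA5, and it measured 8.93, 8.85, 8.98, 8.86 and 8.996 after GenX2 and 9.15, 9.05, 8.63 and 8.97 after GenX10, against 8.04, 8.47, 8.29, 8.20 and 8.01 in controls. No exposed array of these 3 groups fell within the control range. The rise was 0.69 ± 0.09 (limma adjusted p = 2.9e-05), 0.72 ± 0.10 (2.8e-05) and 0.75 ± 0.10 (3.6e-05), or 1.62-fold, 1.65-fold and 1.68-fold. These 3 calls held without the arrays of conflicting labels, without those of low Xist, and without any array taken singly. After PFOA1 it stood at 0.34 ± 0.10 (limma adjusted p = 0.13). In dams Cr1l stood between -0.06 ± 0.10 and 0.07 ± 0.10 over the 4 exposures. Cd55, the membrane decay-accelerating factor, was not called after any exposure.

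The receptors C3ar1 and C5ar1 bind C3a and C5a on myeloid cells. Neither was well above background in any group. C3ar1 measured 5.74, 5.54, 5.18, 5.95 and 5.64 in PFOA5 dams, against 5.20, 5.31, 5.40, 5.41 and 5.50 in controls, which was not called (limma adjusted p = 0.098). C5ar1 measured 5.85, 6.03, 5.78, 5.96 and 6.00 in PFOA5 dams, against 5.93, 5.97, 5.95, 6.27 and 5.83 in controls, overlapping throughout.

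Of 29 further complement-related genes 25 were measured, a list of near copies, pentraxins, carboxypeptidases and other receptors, of which Vsig4 is also among the macrophage markers. After PFOA5 11 fell and 4 rose in dams, and after GenX10 9 fell and 2 rose, with medians of -0.11 and -0.05, while 9.04% and 6.22% of all genes fell and 10.8% and 7.55% rose. Crp and Apcs encode the pentraxins, which bind C1q. Apcs fell by 0.97 (SE 0.12, limma adjusted p = 5.9e-06) and Crp by 0.64 (SE 0.09, 2e-05) after GenX10, and GenX2 lowered both (by 0.71 and 0.42, limma adjusted p = 0.0011 and 0.0061) with Susd4, which lay at background. In fetuses 3 rose and 3 fell after PFOA5, and 4 rose and 3 fell after each of GenX2 and GenX10, while none was called after PFOA1, beside 3.39%, 6.73% and 9.27% of all genes called after PFOA5, GenX2 and GenX10. In controls 16 of the 25 fetal and 14 of the 25 maternal genes were not well above background. Cpn1, a subunit of the carboxypeptidase that inactivates C3a and C5a, rose by 0.39 ± 0.09, 0.49 ± 0.09 and 0.53 ± 0.10 (limma adjusted p = 0.01, 0.0014 and 0.001), calls that held without either pair of arrays in doubt. Of the others, C1s2 was lost after PFOA5 and GenX2 without the arrays of low Xist (limma adjusted p = 0.068 and 0.12), after GenX2 without those of conflicting labels (0.052) and after PFOA5 with source names followed (0.0501), and C1qbp after PFOA5 without those of low Xist (0.055). C1rb was at least 1.24-fold, 1.25-fold and 1.16-fold lower after PFOA5, GenX2 and GenX10 in fetuses.

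The dose steps of each compound were compared within a tissue. In dams the step of PFOA changed 17 of the 34 genes (50%, against 18.7% of all genes, with 10.2% higher and 8.52% lower), of which 16 were lower after PFOA5 than after PFOA1. C1s1 was lower by 1.81 on the log2 scale (SE 0.34, limma adjusted p = 0.00061), C8b by 1.40 (SE 0.24, 0.0002) and Mbl2 by 1.20 (SE 0.16, 1.6e-05), and C3ar1, at background, was the one gene higher. The C3ar1 call was lost without PFOA1 replicate 1, 4 or 5 or PFOA5 replicate 1, 2, 4 or 5 (adjusted p up to 0.16), and that of Colec10 (-0.58) without PFOA1 replicate 4 or PFOA5 replicate 2 (up to 0.062). The step of GenX in dams gave 0 limma calls (0.237% of all genes). At an unadjusted limma p under 0.05 there were 18 members, against 2462 of all 30743 genes. C4bp came closest (-0.47 ± 0.11, limma adjusted p = 0.064), then C8b (-0.90 ± 0.24, 0.15). In fetuses the PFOA step gave C1ra and Mbl2 as lower (5.88%, against 0.0488% of all genes, with 0.013% higher and 0.0358% lower), both at background in both groups. The C1ra call was lost without any single array other than PFOA1 replicate 4 (adjusted p up to 0.17). It was also lost without the arrays of conflicting labels, with source names followed and without those of low Xist. The fetal GenX step gave 0 limma calls (0% of all genes), with 2 members at an unadjusted p under 0.05, against 619 of all 30743 genes. The doses of PFOA and GenX were not matched, so the compounds were not compared with each other.

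Unexposed fetal and maternal livers differed in most of these genes. Relative to control dams, 21 of the 34 were lower and 5 higher in control fetuses (76.5% called, against 62.2% of all genes, with 61.8% against 42.2% for lower and 14.7% against 20% for higher). These counts were the same without the arrays of low Xist. C2 (-0.29 ± 0.12) was lost without maternal control replicate 2 or 4 or fetal control replicate 4 or 5 (adjusted p up to 0.14). The median difference was -0.62, against -0.13 for all genes. C4bp averaged 5.35 ± 0.54 in fetuses, where it lay at background, and 10.90 ± 0.13 in dams (SD, n = 5 each), and was at least 8.02-fold lower in fetuses (limma adjusted p = 2.3e-31). Mbl2 averaged 7.75 ± 0.43 in fetuses and 11.36 ± 0.15 in dams (limma adjusted p = 7.6e-24), and is given no fold because 2 of 5 fetal arrays were above background. C8a, above background on 4 of 5 fetal arrays, was 6.07-fold, C4b 4.72-fold and Clu 3.88-fold lower. The 2 genes of C8 on chromosome 4 went separate ways: C8a averaged 8.17 ± 0.28 in fetuses and 10.77 ± 0.21 in dams, while C8b averaged 10.66 ± 0.22 in fetuses and 9.79 ± 0.23 in dams (0.87 ± 0.20 higher, limma adjusted p = 0.00026).

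C1qb (0.60 ± 0.19, limma adjusted p = 0.0063) and Fcna (0.53 ± 0.12, 0.00024) were also higher in fetuses, where the summed macrophage markers stood at 2728.0 to 3235.3, against 1269.0 to 2124.5 in dams; their part in the result was not tested. Cd55 was at least 1.44-fold higher in fetuses (4.5e-09), and C9 was called higher with both groups at background. C1s1, Colec10, Cr1l and Cfp were among the 8 genes not called. Summed hepatocyte markers stood at 26512.0 to 29401.7 in control fetuses, against 33010.7 to 35618.9 in control dams. The 4 erythroid markers summed to 5800.5 to 6792.9 in fetuses, against 453.8 to 516.9 in dams, where 3 of the 4 (Slc4a1, Epb42 and Klf1) lay at background. The 8 granulocyte markers summed to 7380.8 to 9020.4 in fetuses, where Elane and Prtn3 lay at background, against 518.8 to 618.7 in dams, where all 8 did. The 4 megakaryocyte markers summed to 1642.5 to 1908.3 in fetuses, where Itga2b lay at background, against 426.7 to 477.6 in dams, where all 4 did. The part of these cells in the differences between tissues was not tested.

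**Figure D4:**
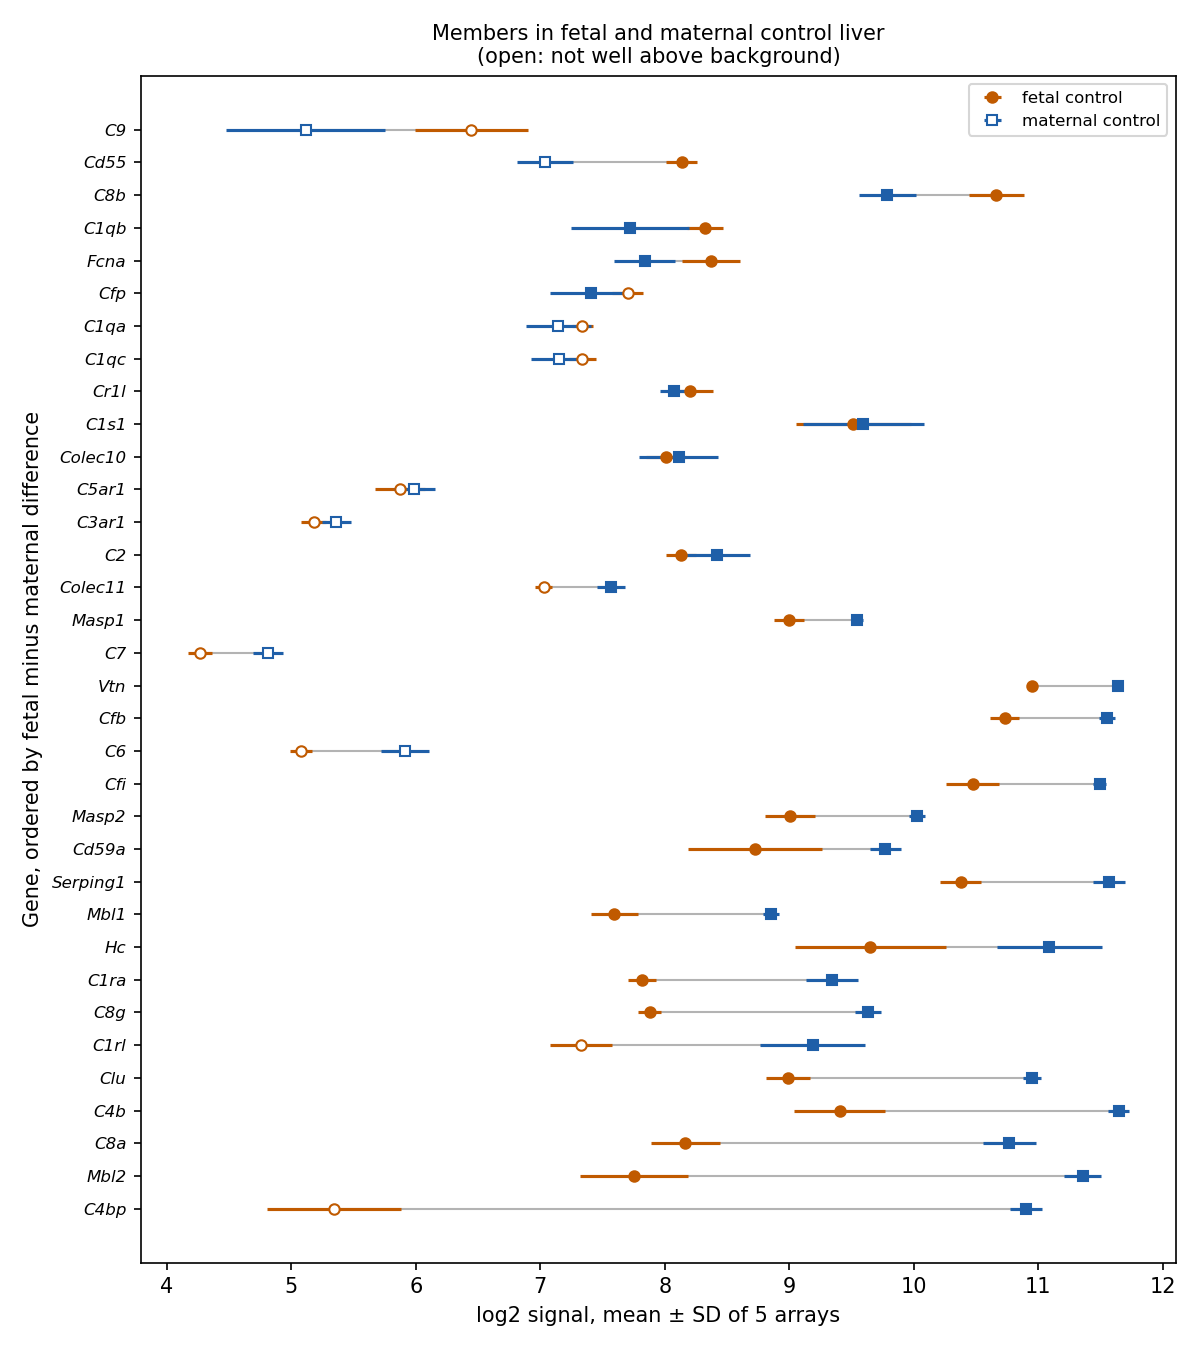
Mean log2 signal of each measured complement gene in control fetal and control maternal liver with its SD (5 arrays each), open where not well above background. C4bp, Mbl2, C8a and C4b stand furthest below their maternal level in fetal liver, and C8b, C1qb, Fcna and Cd55 stand above it.

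Whether an exposure acted differently in fetus and dam was tested directly, as the fetal minus the maternal log2 difference in a fit of all 50 arrays. After PFOA5, 7 genes differed, all with the fetal effect above the maternal one (20.6%, against 4.48% of all genes, with 1.77% above and 2.71% below). The difference between the effects was 1.21 ± 0.28 for C8b (limma adjusted p = 0.004), 0.74 ± 0.15 for C8g (0.00085), 0.70 ± 0.14 for Cr1l (0.00084), 0.67 ± 0.19 for Mbl1 (0.027), 0.53 ± 0.13 for Clu (0.0094), 0.43 ± 0.09 for Vtn (0.0022) and 0.38 ± 0.11 for Cfb (0.038). C8b was called lower in both tissues, by less in fetuses. Its fetal call was lost without the arrays of low Xist and in 8 of 11 fits with 1 array left out. Mbl1 and Cr1l were not called in dams. Without the arrays of conflicting labels Mbl1 gave 0.58 (limma adjusted p = 0.066) and Cfb 0.34 (0.071). Both calls were also lost with source names followed. Mbl1 was lost without maternal PFOA5 replicate 3, fetal control replicate 2 or fetal PFOA5 replicate 3 or 6 (adjusted p up to 0.062). Cfb was lost without maternal control replicate 1, 2 or 3, maternal PFOA5 replicate 2, 3 or 5, fetal control replicate 1, 2, 4 or 5 or fetal PFOA5 replicate 4, 5 or 6 (up to 0.083).

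After GenX10, 4 genes differed (11.8%, against 2.04% of all genes, with 0.735% above and 1.3% below): C8b by 1.29 ± 0.29 (limma adjusted p = 0.0066), Mbl1 by 0.74 ± 0.20 (0.031), Cr1l by 0.72 ± 0.15 (0.0021) and Fcna by -0.64 ± 0.18 (0.037). Fcna was lost without the arrays of low Xist (-0.58, limma adjusted p = 0.095), and without maternal control replicate 1 or 5, maternal GenX10 replicate 1 or 5, fetal control replicate 1, 2 or 3 or fetal GenX10 replicate 2 or 3 (adjusted p up to 0.10). Mbl1 was lost without maternal control replicate 1, maternal GenX10 replicate 2, 4 or 5, fetal control replicate 2 or 5 or fetal GenX10 replicate 1 or 2 (up to 0.070). After GenX2, 2 differed (5.88%, against 1.28% of all genes, with 0.612% above and 0.667% below): Cr1l by 0.65 ± 0.14 (limma adjusted p = 0.0084) and Mbl2 by -1.02 ± 0.22 (0.0073), with fetal Mbl2 at background after exposure. After PFOA1 limma called 0 (0.179% of all genes), with 6 members at an unadjusted p under 0.05, against 1550 of all 30743 genes.

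**Figure D5:**
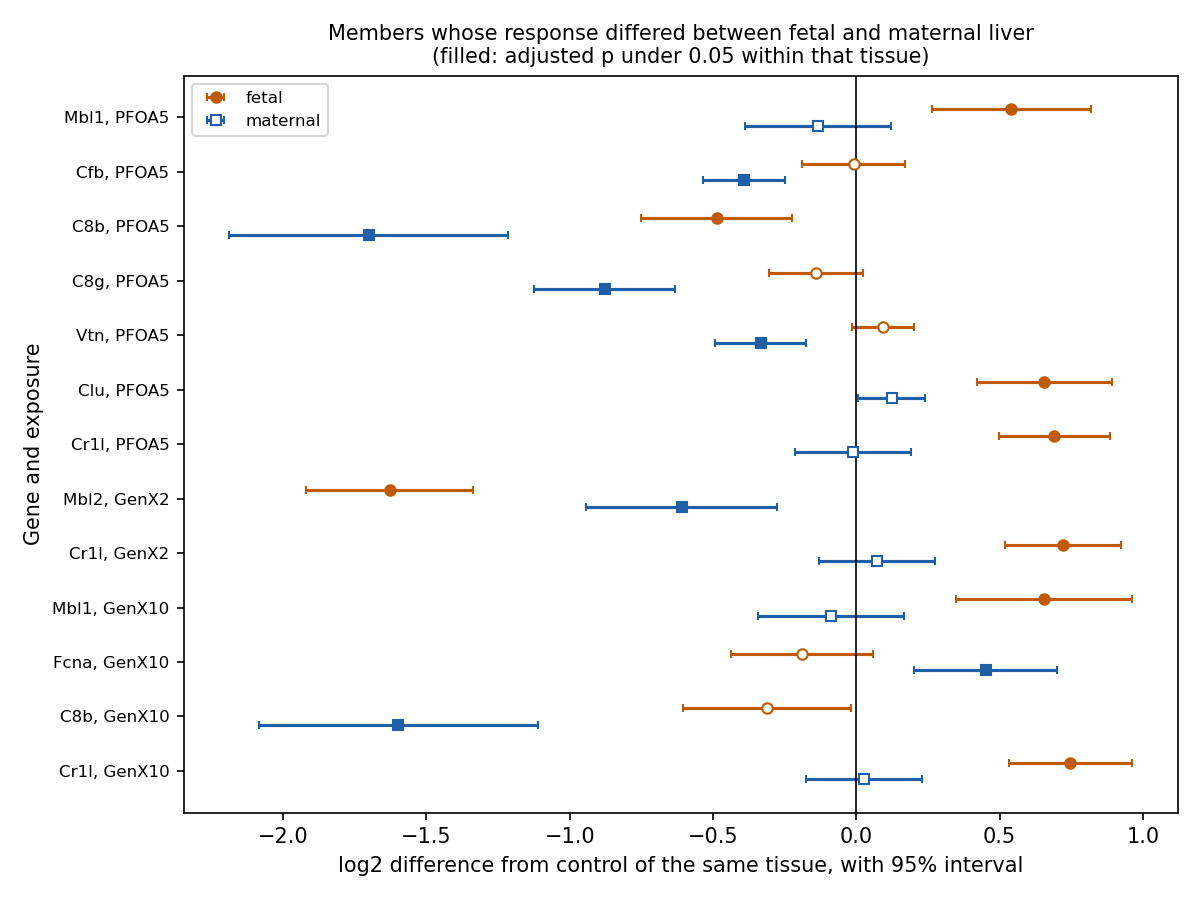
Log2 difference from the tissue's own controls in fetal and maternal liver for the complement genes whose effects differed between the tissues, with 95% intervals and filled points where the gene was called within that tissue. Cr1l and Mbl1 stand above 0 in fetal liver and near 0 in maternal liver, and C8b stands below 0 in both, further so in maternal liver.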

How the data were processed

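Total RNA of left lateral lobe (dams) and fetal liver, with RNA integrity numbers above 5 per the labels' protocols, was run on Affymetrix whole-transcript arrays. The deposited values are log2 signals, and the submitters' processing notes list RMA and the build mm10, without versions. Because RMA forces arrays to 1 common distribution, a shift of most genes one way is partly removed. Levels near background are compressed. The number of arrays limits the precision. Each p-value sets a difference against the spread between animals within groups. That spread was pooled over the groups fitted together and moderated over all genes.

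Of the platform's named probes 30604 had 1 symbol, 612 several symbols of 1 gene, and 1534 of several genes were left out; 874 symbols were updated and the brightest probe of a gene was used, which left 30743 genes. limma 3.58.1 (R 4.3.3) was fitted per tissue over its 5 groups, and over all 50 arrays for comparisons between tissues, with Benjamini-Hochberg adjustment over all genes in each of 17 comparisons. Python 3.11.15 and pandas 2.3.3 were used otherwise, and the fit was tested on simulated data. Where a gene was not well above background in a group (the 95th percentile of 5222 negative controls), the bound sets the brighter group's mean against, per array, the lowest signal above background or the gene's own where higher.

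The genes, arms, marker lists and tests were chosen with earlier results of these data known. Array values are given for up to 3 genes of each arm with the smallest maternal adjusted p, 2 more by the fetal one, and those whose effects differed between tissues; C1qb, Colec10 and the members named for the loss of a call were added after their values were seen. Whether replicate numbers in titles pair the arrays is not known. Deviations of same-numbered arrays correlated with a median r of -0.03 within each tissue and -0.07 between dam and fetus. Such values cannot decide it, because livers of a dam and her fetus need not deviate alike. Alternatives covered dim genes, several probes, centring, trend, array weights, groups fitted, the replicate block, doubtful arrays and each array left out.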

Additional observations from a re-analysis of the deposited data

Results flagged for a closer look

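Within the groups of arrays, 15 of 340 gene and group combinations had 1 array far from the others by Dixon's criterion at 95%, and chance alone gives about 1 in 20. They lay on 10 arrays, with 3 each on maternal GenX2 replicate 1 and fetal GenX2 replicate 4. On maternal GenX2 replicate 1, C9 measured 9.07 (4.47 to 4.73 in the other arrays of the group), C4b 10.47 (11.23 to 11.52) and Fcna 8.11 (7.94 to 7.99). On fetal GenX2 replicate 4, C4b measured 7.42 (8.47 to 8.74), Mbl1 7.75 (8.23 to 8.36) and Fcna 8.50 (8.07 to 8.13). Fetal control replicate 1 was highest for C1qa at 7.49 (7.28 to 7.32) and C1qb at 8.58 (8.22 to 8.30).

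The remaining arrays had 1 each. C1qa measured 7.47 in fetal PFOA1 replicate 3 (7.23 to 7.29), C1s1 7.69 in maternal GenX2 replicate 4 (8.98 to 9.49) and Masp2 9.70 in maternal GenX10 replicate 2 (9.98 to 10.03). C8b measured 10.49 in fetal PFOA5 replicate 6 (10.04 to 10.18), the array whose source name gives GenX. C8g measured 7.50 in fetal GenX10 replicate 3 (7.59 to 7.60), C4bp 9.85 in maternal PFOA5 replicate 3 (10.07 to 10.09) and Cd55 7.47 in maternal PFOA1 replicate 5 (7.05 to 7.11).

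The effect of an exposure differed between fetus and dam by limma's test of the difference itself in 13 cases, each as fetal minus maternal log2 difference. After PFOA5 these were Mbl1 0.67, Cfb 0.38, C8b 1.21, C8g 0.74, Vtn 0.43, Clu 0.53 and Cr1l 0.70. After GenX2 they were Mbl2 -1.02 and Cr1l 0.65. After GenX10 they were Mbl1 0.74, Fcna -0.64, C8b 1.29 and Cr1l 0.72.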

How the results depend on the processing

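No called gene changed direction in any alternative run. Of the values of called genes, 981 stayed past the threshold under settings other than leaving out an array and 57 did not, and with 1 array left out 1184 did and 160 did not. Counts of members called moved by more than 1.5 times as follows. With dim genes left out, fetal GenX10 gave 6, the maternal GenX step 1 and the fetal PFOA step 0. With arrays centred on their medians, maternal GenX2 gave 1 and the fetal PFOA step 1. With only the compared groups fitted, maternal GenX2 gave 1, fetal PFOA5 5, the fetal PFOA step 1 and the GenX2 effect between tissues 1. With array weights, the maternal GenX step gave 1 and the GenX10 effect between tissues 7. The fetal PFOA step gave 1 without the arrays of conflicting labels, with source names followed, and without those of low Xist. Causes were not tested beyond what each setting leaves out.

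With 1 array left out, members called ranged over 0 to 0 (maternal PFOA1), 15 to 21 (PFOA5), 0 to 3 (GenX2) and 10 to 13 (GenX10), and in fetuses over 2 to 3 (PFOA1), 6 to 8 (PFOA5), 5 to 8 (GenX2) and 7 to 9 (GenX10). The maternal GenX2 count was 0 without maternal control replicate 3, and fetal PFOA5 was 6 without fetal control replicate 3. The dose steps gave 15 to 17 and 0 to 1 in dams and 1 to 2 and 0 to 0 in fetuses, the control tissues 25 to 28, and the effects between tissues 0 to 0, 5 to 9, 2 to 2 and 2 to 6. The maternal GenX2 calls of Mbl2, C8g and C4bp were lost without 6, 2 and 5 of the 10 arrays.

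With the replicate block the counts were 0, 18, 2 and 13 in dams (PFOA1, PFOA5, GenX2, GenX10) and 2, 8, 9 and 9 in fetuses, 16, 0, 2 and 0 for the dose steps, 26 for the tissues and 0, 6, 2 and 3 for the effects between tissues. The numbers are shared labels, and whether they pair arrays is not known. Centring moved the split of all called genes (higher and lower) to 3997 and 1287 in place of 3329 and 2780 for maternal PFOA5, 966 and 164 for 748 and 288 (GenX2), 3046 and 735 for 2320 and 1912 (GenX10), 1704 and 615 for 1200 and 870 (fetal GenX2) and 2130 and 833 for 1360 and 1491 (fetal GenX10), 3779 and 1008 for 3129 and 2619 (maternal PFOA step), and 7109 and 9357 for 6156 and 12960 (tissues). Centring ended the calls of Colec10 (maternal PFOA5), Mbl2 and C4bp (maternal GenX2), C2 and Serping1 (maternal GenX10, adjusted p = 0.11 and 0.067), C1qa and C8g (fetal GenX10), C1ra (fetal PFOA step), C2 (tissues), and Cfb and Fcna (effects between tissues). Fitting only the compared groups ended those of C1qb (maternal PFOA5 and GenX10), C8g and C4bp (maternal GenX2), Mbl2 (fetal PFOA1, adjusted p = 0.065), C1s1, C4b, Mbl1 and C4bp (fetal PFOA5), C1qa, C4bp and Clu (fetal GenX10), C3ar1 and C1ra (PFOA steps), and Fcna and Mbl2 (effects between tissues). The replicate block ended those of Mbl2 (maternal GenX2), Clu (maternal GenX10), Mbl1 (fetal PFOA5), C1qa (fetal GenX10), C3ar1 (maternal PFOA step), and Cfb and Fcna (effects between tissues). Array weights ended that of C4b (fetal PFOA5), and an intensity trend those of Clu (maternal GenX10) and Cfb (PFOA5 effect between tissues). Signal over background limits the fetal results of Mbl1, Mbl2, C1ra, C4bp, C1qa and C8g, and partly those of C1s1 and C4b and the maternal ones of C1s1, C8b, C1qb and Colec10.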
